A study of Mus musculus with 27 samples.

Results

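The change of gene expression in the fetal brain of AKR/J mice from gestational day 12 (d12) to day 15 (d15) was described across all genes. The comparison rests on 6 of the 27 libraries of the study, 3 of d12 and 3 of d15, which were chosen by their labelled strain and gestational day. AKR/J is an inbred mouse strain known for its short life span and for leukemia, and these libraries carry no transgene, knockout or treatment. The dams were mated at about 8 weeks of age, and the day of the vaginal plug was counted as day 1. The fetuses were snap frozen, the whole brain of each was dissected, all 6 were labelled female after a PCR assay of sex, and libraries were made from mRNA selected by poly(A). The rest of the series holds AKR/J on d17 and the strains C57BL/6J and B6.Cg-Cav1tm1Mls/J (Cav1-null, a knockout of the caveolin 1 gene on the C57BL/6J background) on the same days. The labels do not tell which fetuses came from the same litter, so the p-values measure the spread between these samples.

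The libraries held 28340089 to 35743241 reads on genes, and 19935 of the 55416 genes listed had enough reads to be tested. Several libraries stood apart from their group or went against a label. Xist, the RNA of the inactive X chromosome of female cells, had 67235, 180110 and 53005 reads in d12 replicates 1, 2 and 3 and 161988, 168139 and 103 reads in d15 replicates 1, 2 and 3, so that d15 replicate 3 nearly lacked it. That library had 0 reads of the Y-linked genes Ddx3y, Uty, Kdm5d and Eif2s3y. The library labelled female d12 replicate 1 had 430, 254, 144 and 401 reads of these 4 genes beside its Xist reads, whereas the other 5 libraries had at most 4 reads of any of them. Rn18s, the small ribosomal RNA, ranged from 1852 to 25424 in units of reads-per-million (RPM, relative to all reads on genes of a library) over the 6 libraries. Among the d12 libraries, replicate 2 was the closest to d15, with Pearson correlations of log2(CPM + 1) over genes of 0.947 to 0.953, against 0.895 to 0.920 for replicates 1 and 3. The number of differentially expressed (DE) genes given next was 3775 without d12 replicate 1, 9052 without d12 replicate 2, 3807 without d12 replicate 3, 2871 without d15 replicate 1, 4506 without d15 replicate 2 and 2619 without d15 replicate 3. Marker genes of other tissues and of brain regions also separated the libraries, and their values stand beside the gene groups they touch.

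In this window of development, the neural stem cells that line the ventricles of the mouse brain, called radial glia, pass from dividing among themselves to producing neurons, directly or through intermediate progenitors. New neurons leave the cell cycle, migrate outwards, extend axons and build the receptors, channels and synaptic proteins of neural circuits, while the first glial precursors and the choroid plexus appear. The blood of the embryo changes over the same days, from nucleated red cells of the yolk sac with embryonic globins to red cells of the fetal liver with adult globins. RNA of whole dissected brain holds all of these cells together, and fewer cells of a type and less RNA per cell cannot be told apart in such samples.

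From d12 to d15, 5758 genes (28.9% of those tested) were DE at an adjusted p under 0.05 in edgeR's quasi-likelihood test, of which 2958 (14.8%) were higher and 2800 (14%) lower on d15. The median log2 fold change of d15 over d12 was 0.02 over all genes tested. Falls were larger than rises at the extremes, since 96 genes rose and 142 fell by at least 4 on the log2 scale, and 30 rose and 90 fell by at least 5. With library sizes alone, without the TMM factors that correct for a few very abundant genes, the median of all genes moved to 0.46 and 74.72% of the DE genes were higher, against 51.37% with TMM. The changes below are therefore to be read against the median of all genes. In the following, levels of single genes are TMM-normalised counts-per-million values (normalised CPM), listed for replicates 1, 2 and 3 of a day in that order, and summed levels of gene lists are plain RPM without the TMM factor.

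The 10 largest rises, among DE genes of at least moderate abundance whose libraries did not overlap between days, were those of Grm5, Ablim3, Ppp2r2c, Plppr4, Hpcal4, Kcnk9, Dpp10, Hs3st4, Bcan and Glra2. Grm5 (ENSMUSG00000049583, chr7:87233376-87784594), a metabotropic glutamate receptor, had 0.851, 0.622 and 0.665 normalised CPM on d12 and 37.5, 31.6 and 41.1 on d15 (log2 fold change 5.68, SE 0.24, adjusted p = 0.000157). Glra2 (chrX:163911666-164110678), the glycine receptor subunit of immature neurons, had 2.17, 3.98 and 3.47 normalised CPM on d12 and 61.8, 47.2 and 51.5 on d15 (log2 fold change 4.06, SE 0.27). Both receptors were low in every d12 library and many times higher in every d15 library. Kcnk9 (chr15:72372938-72419556), a potassium channel that sets the resting potential, rose by a log2 fold change of 4.22 (SE 0.45), and Dpp10 (chr1:123249200-124773776), an auxiliary subunit of Kv4 potassium channels, by 4.21 (SE 0.41). Bcan (chr3:87894835-87910177), the extracellular matrix proteoglycan brevican made by glia, had 1.86, 1.96 and 0.285 normalised CPM on d12 and 30.2, 19.4 and 21.0 on d15 (log2 fold change 4.07, SE 0.57). Plppr4 and Hpcal4, a lipid phosphatase related protein of glutamatergic synapses and a neuronal calcium sensor, had at most 0.995 and 0.967 normalised CPM on d12 and at least 17.6 and 16.6 on d15. The plot of neural genes by library shows these rises beside the falls of the progenitor genes.

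**Figure D1:**
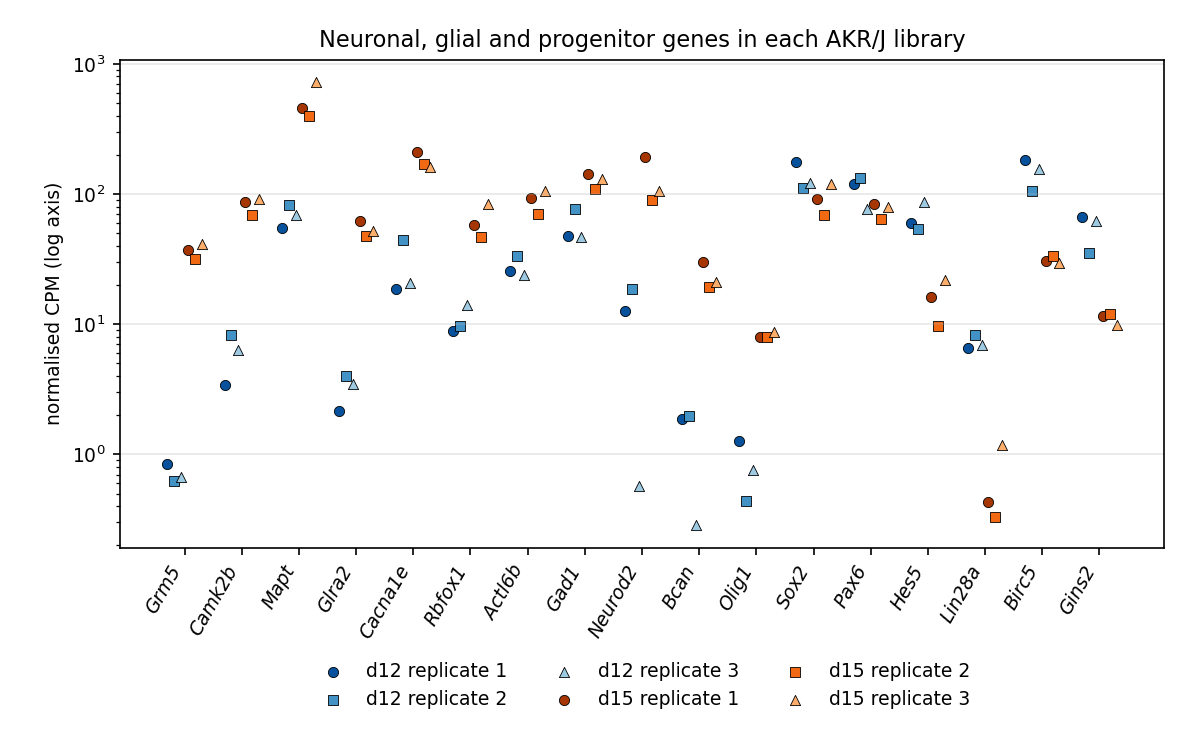
Normalised CPM (log axis) of neural genes in each of the 6 AKR/J libraries, where each point is a library, blue for d12 and orange for d15, and its shape gives the replicate. Grm5 was at most 0.851 normalised CPM on d12 and at least 31.6 on d15, while Birc5 fell from at least 105 to at most 33.5.

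Genes of dividing cells fell together. Of 40 genes of DNA replication tested, 30 fell and none rose (median log2 fold change -0.87), and of 35 genes of mitosis 31 fell and none rose (median -1.03), against 14% of all genes that fell. The libraries of the days did not overlap for 39 of the 40 replication genes and for all 35 mitosis genes, beside 47% of all genes tested. Gins2 (chr8:121305372-121316043), a subunit of the replicative helicase, had 66.7, 35.4 and 62.1 normalised CPM on d12 and 11.5, 12.1 and 9.90 on d15, the largest fall of the replication genes (log2 fold change -2.29, SE 0.26, adjusted p = 0.00136). Birc5 (chr11:117740040-117746581), the survivin subunit of the chromosomal passenger complex, had 183, 105 and 155 normalised CPM on d12 and 30.7, 33.5 and 29.3 on d15 (log2 fold change -2.25, SE 0.23, adjusted p = 0.00104). In both genes the d15 libraries lay close together and d12 replicate 2 was the lowest of its day. Among the others, Pcna, the sliding clamp of the replication fork, fell by 1.64 on the log2 scale, Cdk1, the kinase that starts mitosis, by 1.37, and Mki67, which encodes the proliferation marker Ki-67, by 0.81.

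The size of these falls depended on the scaling. With library sizes alone, 8 replication genes and 10 mitosis genes were DE, all lower, and the list medians were -0.47 and -0.63 beside 0.46 for all genes. In plain RPM, the replication genes summed to 2002, 2714 and 1819 on d12 and to 1454, 1549 and 1491 on d15, and the mitosis genes to 2810, 4299 and 2629 on d12 and to 2132, 2208 and 2076 on d15. Both sums were higher in each d12 library than in each d15 library, and d12 replicate 2 was the highest. With 1 library left out, 16 (without d15 replicate 1) to 32 (without d12 replicate 2) replication genes and 24 to 34 mitosis genes were lower.

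Promoter sequences of 3 of these genes and of an embryonic globin gene are shown because members of each list fell together and because the families of genes carry known promoter motifs. They are from the RefSeq promoter table of build GRCm38.p6, end at the base before the annotated start of the gene and were found again without mismatch at the GRCm39 coordinates given. Birc5 is the mitosis gene with the largest fall, whereas Mcm5, Ccnb2 and Hbb-y were chosen after the data were seen, Mcm5 and Ccnb2 as the DE members with the largest fall among those with the motif and Hbb-y as the most abundant embryonic globin gene. Capitals mark the motifs, which are the E2F site (TTTCCCGC or TTTGGCGC), the CHR element (TTTGAA), the GATA site (AGATAA), the CACCC box (CCACACCC), the CCAAT box (CCAAT) and the TATA box (TATAAA), each on both strands, and the last 2 were added after the data were seen. Gins2 and Hbb-bh1 are named only.
Mcm5 (chr8:75835887-75836136, + strand): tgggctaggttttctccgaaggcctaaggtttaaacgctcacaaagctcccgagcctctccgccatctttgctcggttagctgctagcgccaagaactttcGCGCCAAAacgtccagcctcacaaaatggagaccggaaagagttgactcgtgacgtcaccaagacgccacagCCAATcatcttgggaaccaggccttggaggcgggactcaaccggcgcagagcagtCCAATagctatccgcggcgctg
Birc5 (chr11:117739813-117740039, + strand): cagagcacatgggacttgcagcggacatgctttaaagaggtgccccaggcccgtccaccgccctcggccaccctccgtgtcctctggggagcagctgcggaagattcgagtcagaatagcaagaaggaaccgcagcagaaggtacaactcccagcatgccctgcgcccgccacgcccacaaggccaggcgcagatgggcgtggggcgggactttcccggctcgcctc
Ccnb2 (chr9:70328875-70329086, - strand): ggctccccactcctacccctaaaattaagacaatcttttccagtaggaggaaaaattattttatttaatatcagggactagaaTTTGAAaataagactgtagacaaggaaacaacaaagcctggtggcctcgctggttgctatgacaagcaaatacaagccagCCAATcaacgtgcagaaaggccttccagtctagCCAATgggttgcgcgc
Hbb-y (chr7:103502424-103502664, - strand): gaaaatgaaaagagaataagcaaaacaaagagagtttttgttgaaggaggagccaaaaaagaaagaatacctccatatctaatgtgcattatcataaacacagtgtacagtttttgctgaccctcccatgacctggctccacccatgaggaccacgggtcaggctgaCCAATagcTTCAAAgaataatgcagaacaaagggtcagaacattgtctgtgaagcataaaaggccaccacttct

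The Mcm5 promoter held an E2F site 149 to 142 bases before the start and CCAAT boxes at 77 to 73 and at 22 to 18 bases. Mcm5, a subunit of the replicative helicase, had 56.6, 73.0 and 52.6 normalised CPM on d12 and 32.5, 35.8 and 40.05 on d15 (log2 fold change -0.75, SE 0.18, adjusted p = 0.016). In Ccnb2 a CHR element lay 129 to 124 bases and CCAAT boxes lay 49 to 45 and 16 to 12 bases before the start, and this gene of the mitotic cyclin B2 fell from 79.7, 46.1 and 71.4 to 26.6, 25.3 and 29.6 normalised CPM (log2 fold change -1.27, SE 0.22). None of the 6 motifs was found in the 227 bases printed for Birc5, and Hbb-y had a CCAAT box at 74 to 70 bases and a CHR element on the other strand at 66 to 61 bases. An E2F site was in 15.8% of 38 promoters of replication genes, in none of 29 promoters of mitosis genes and in 1.3% of all 32851 promoters of 250 bases in the table. A CHR element was in 34.5% of the mitosis promoters, 10.5% of the replication promoters and 16% of all, and a CCAAT box in 72.4%, 57.9% and 33.8%. The promoters of 33 of 40 replication genes and 28 of 35 mitosis genes were in the table. These shares describe letters in a window, and no test was made on them.

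Genes of radial glia fell in part. Of 18 tested, 7 fell and 2 rose (median log2 fold change -0.78), and with library sizes alone 2 fell and 2 rose. Hes5 (chr4:155045373-155046828), a target of Notch that keeps progenitors from differentiating, had 60.1, 54.1 and 86.5 normalised CPM on d12 and 16.3, 9.73 and 22 on d15 (log2 fold change -2.06, SE 0.32, adjusted p = 0.00356). Fabp7, Nes and Vim, which encode a fatty acid binding protein and intermediate filaments of radial glia, fell by 1.76, 1.25 and 0.76 on the log2 scale. The transcription factors that define neural stem cells did not pass the test: Sox2 had 176, 112 and 121 normalised CPM on d12 and 92.2, 68.4 and 120 on d15 (log2 fold change -0.54, adjusted p = 0.151), and Pax6 had a log2 fold change of -0.52 (adjusted p = 0.119). Tnc, the matrix protein tenascin C, rose from 12.1, 4.14 and 7.84 to 55.9, 69.0 and 67.8 normalised CPM (log2 fold change 3.00, SE 0.36), and Slc1a3, the glial glutamate transporter, rose by 1.66. Without d15 replicate 1, 1 gene of the list was lower, without d15 replicate 2, 2 were, and without d12 replicate 1, 4 were.

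Among intermediate progenitor and proneural genes, 5 of 15 fell and 1 rose (median -0.77). Neurod4 and Neurog1, proneural factors, fell by 1.86 and 1.68 on the log2 scale, the latter from 8.74, 14.9 and 16.8 to 4.62, 2.72 and 5.31 normalised CPM (adjusted p = 0.0105). The somatostatin receptor gene Sstr2 rose (log2 fold change 2.07, SE 0.36). Eomes, the marker of cortical intermediate progenitors, had 28.6, 23.5 and 0.38 normalised CPM on d12 and 55.7, 25.9 and 37.5 on d15 (log2 fold change 1.18, SE 0.96, adjusted p = 0.391), where the single low value was that of d12 replicate 3. With library sizes alone, Neurog1 did not pass the test and 1 gene of the list was lower, and without d15 replicate 2, 3 were.

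In the Notch pathway, which keeps progenitors undifferentiated, 8 of 22 genes fell and 4 rose, and the list median was -0.33 beside 0.02 for all genes. With library sizes alone 1 fell and 3 rose, and the median was 0.10 beside 0.46 for all genes. The receptors Notch1 and Notch3 fell by 0.89 and 1.47 on the log2 scale and the inhibitory ligand Dll3 by 1.27, while Dner, a neuronal Notch ligand, rose by 1.27 (SE 0.35, adjusted p = 0.0283). Of 28 Wnt pathway genes 6 fell and 1 rose, beside 14% and 14.8% of all genes, with a list median of -0.32. With library sizes alone 1 Wnt gene fell and 1 rose, and the median was 0.07. Rspo1, which amplifies Wnt signals, fell from 48.9, 36.8 and 16.4 to 5.14, 7.10 and 6.27 normalised CPM (log2 fold change -2.46, SE 0.38). Dkk3 rose by 1.08 (adjusted p = 0.0329). Of 15 hedgehog pathway genes 3 fell, near the 14% of all genes, Gas1, a coreceptor of Sonic hedgehog, among them (log2 fold change -1.13, SE 0.23), and no gene of this list was DE with library sizes alone. Without d15 replicates 1, 2 and 3 in turn, 3, 3 and 4 genes fell in the Notch list and 1, 3 and 2 in the Wnt list, and the hedgehog list had no fall without replicate 1 and 1 without replicate 3. Rises in the Notch list were 1 without d15 replicate 3 and 2 without d12 replicate 1 or 3.

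The RNA-binding protein Lin28a (chr4:133730641-133746173), which blocks the maturation of let-7 microRNAs in early embryonic cells, had 6.61, 8.21 and 6.94 normalised CPM on d12 and 0.433, 0.333 and 1.18 on d15 (log2 fold change -3.47, SE 0.51, adjusted p = 0.00302). The lowest d12 library was several-fold above the highest d15 library. In its list of 14 genes, which includes let-7 targets, 7 fell and 1 rose (median -0.54), with Hmga2 (-2.39) and Trim71 (-2.23) next to Lin28a. Myc was the gene that rose (log2 fold change 1.03, adjusted p = 0.0275). When each library was left out in turn, 3 (without d15 replicate 1) to 8 of the 14 were lower, with 4 without d15 replicate 3.

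The machinery of synaptic transmission rose broadly. Of 43 synapse genes 37 rose and none fell (median log2 fold change 1.45), as did 33 of 39 voltage-gated channels (1.53), 17 of 25 glutamate receptor subunits (1.60) and 18 of 20 genes of GABA and glycine receptors and chloride transport (1.68), against 14.8% of all genes. Camk2b (chr11:5915791-6016362), the beta subunit of a calcium-dependent kinase of synapses, had 3.40, 8.30 and 6.32 normalised CPM on d12 and 87.6, 68.8 and 91.2 on d15 (log2 fold change 3.77, SE 0.33, adjusted p = 0.000758). Cacna1e (chr1:154266477-154760247), the pore subunit of R-type calcium channels, had 18.7, 44.2 and 20.6 normalised CPM on d12 and 209, 169 and 160 on d15 (log2 fold change 2.68, SE 0.34). In both the highest d12 value was that of replicate 2, and the days did not overlap.

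Within the receptor lists the rises differed in size. Among NMDA receptor subunits, Grin2b rose by a log2 fold change of 3.83 and the obligatory subunit Grin1 by 2.85, whereas Grin2a (0.95) and Grin2c (0.19) were not DE. The AMPA receptor subunits Gria1, Gria2, Gria3 and Gria4 rose by 3.15, 1.60, 1.36 and 1.15. Of the genes of inhibition, the GABA-B receptor subunit Gabbr2 rose by 3.17 and Gabra5 by 2.67. The chloride exporter gene Slc12a5 (KCC2) rose by 1.65, while the importer gene Slc12a2 (NKCC1) had a log2 fold change of -0.16 and was not DE. Of the vesicle proteins, the synapsin gene Syn2 rose by 2.90, the complexin gene Cplx1 by 2.75 and the calcium sensor gene Syt1 by 2.13.

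Structural genes of neurons rose in part. Of 24 genes of the neuronal cytoskeleton 18 rose (median 1.34), with Mapt (chr11:104122024-104222946), which encodes the microtubule-binding protein tau, at 54.8, 82.5 and 68.5 normalised CPM on d12 and 457, 400 and 723 on d15 (log2 fold change 2.94, SE 0.30). Of 54 clustered protocadherins, cell surface proteins that give neurons a molecular identity, 27 rose and none fell (median 1.05), although their summed level was low at 98.3, 221 and 113 RPM on d12 and 364, 384 and 395 on d15. Axon guidance genes rose in 25 of 70 cases and fell in 3, with Ntng1 (netrin G1) at a log2 fold change of 2.87 (SE 0.27) and Ephb4, an ephrin receptor of veins, at -1.16 (SE 0.24). Of 22 splicing regulators of neurons 9 rose, led by Rbfox1 (2.53, SE 0.28). In the BAF chromatin remodelling complex, whose subunits are exchanged when progenitors become neurons, the neuronal subunit gene Actl6b rose from 25.4, 33.6 and 23.8 to 93.0, 70.5 and 106 normalised CPM (log2 fold change 1.70, SE 0.21) and its progenitor counterpart Actl6a fell by 0.47 (SE 0.15, adjusted p = 0.0433).

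Scaled by library size only, where 3588 of the 19935 genes were higher and the median over all genes was 0.46, 37 synapse genes, 32 channels, 19 glutamate receptor subunits and 18 genes of the GABA and glycine list were higher. With 1 library left out, 31 to 41 synapse genes, 25 to 36 channels, 13 to 17 glutamate receptor subunits and 14 to 17 genes of the GABA and glycine list rose and none fell. The count of protocadherins was 11 without d15 replicate 3, 12 without d15 replicate 1 and 32 without d12 replicate 2, that of cytoskeletal genes was 11 without d15 replicate 3, that of BAF subunits higher on d15 went from 6 to 2 without this library and to 3 without d15 replicate 1 or d12 replicate 3, axon guidance falls were 1 without d15 replicate 1 or 3 and 6 without d12 replicate 2, and Actl6a was not DE when any library other than d12 replicate 2 was left out.

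**Figure D2:**
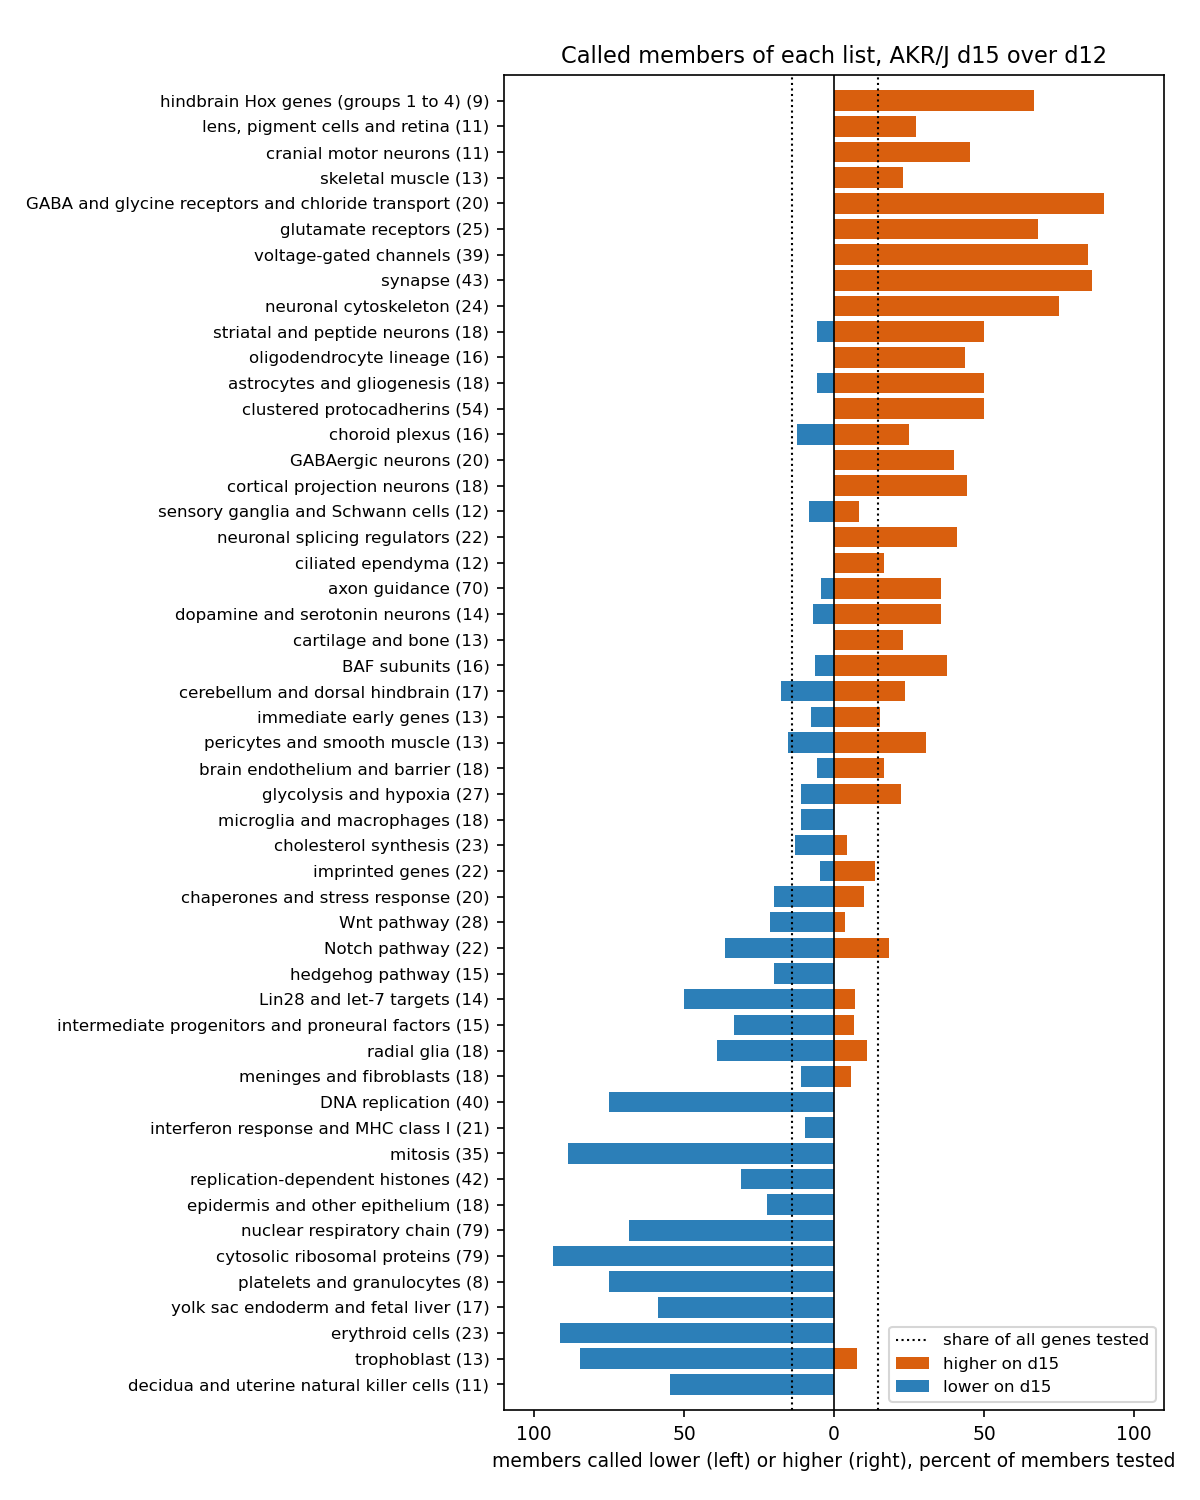
Members called higher (right) or lower (left) on d15 for each gene list with at least 8 members tested, as percent of the members tested, whose number stands in parentheses. Dotted lines mark the shares of all genes, 14.8% higher and 14% lower; lists of synapses, channels and receptors lie far to the right and those of ribosomal proteins, mitosis and red cells far to the left.

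Genes of forebrain neurons rose in part, and these values rest on a d12 group in which 1 library was low in forebrain genes. Tbr1, a factor of early cortical neurons, had 46.8, 38.1 and 0 normalised CPM in d12 replicates 1, 2 and 3 and 74.4, 34.2 and 41.6 on d15. The library of d12 replicate 3 also held 0 reads of Lhx8, a factor of cholinergic neurons of the basal forebrain. Of 15 forebrain genes in a panel put together after the values were seen, all 15 were lowest in d12 replicate 3 among the 6 libraries. Of these, 7 were there at less than 10% of both other d12 libraries. Since the panel was chosen with the values known, these counts are a description. The share of all genes that were lowest in that library was not counted. Summed over the panel, forebrain genes made up 464, 650.4 and 105 RPM on d12 and 1401, 850.3 and 874 on d15.

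Midbrain and hindbrain genes varied between libraries as well. The 8 midbrain genes summed to 169, 543 and 489 RPM on d12 and to 214, 184 and 346 on d15. En2, a factor of the midbrain and hindbrain boundary, had 0.735, 19.5 and 70.0 normalised CPM on d12 and 31.1, 20.3 and 49.0 on d15, a range on d12 wider than that between the days. Tal2, a factor of midbrain GABAergic precursors, fell from 88.3, 134 and 250 to 30.3, 20.7 and 49.4 normalised CPM (log2 fold change -2.24, SE 0.44, adjusted p = 0.0082). Together the 7 hindbrain genes, all of them Hox genes, summed to 3.25, 0.776 and 0.245 RPM on d12 and to 9.997, 23.6 and 93.1 on d15, and d15 replicate 3 was the highest. The part of regional make-up of the dissected tissue in the changes of neuron classes was not tested.

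**Figure D3:**
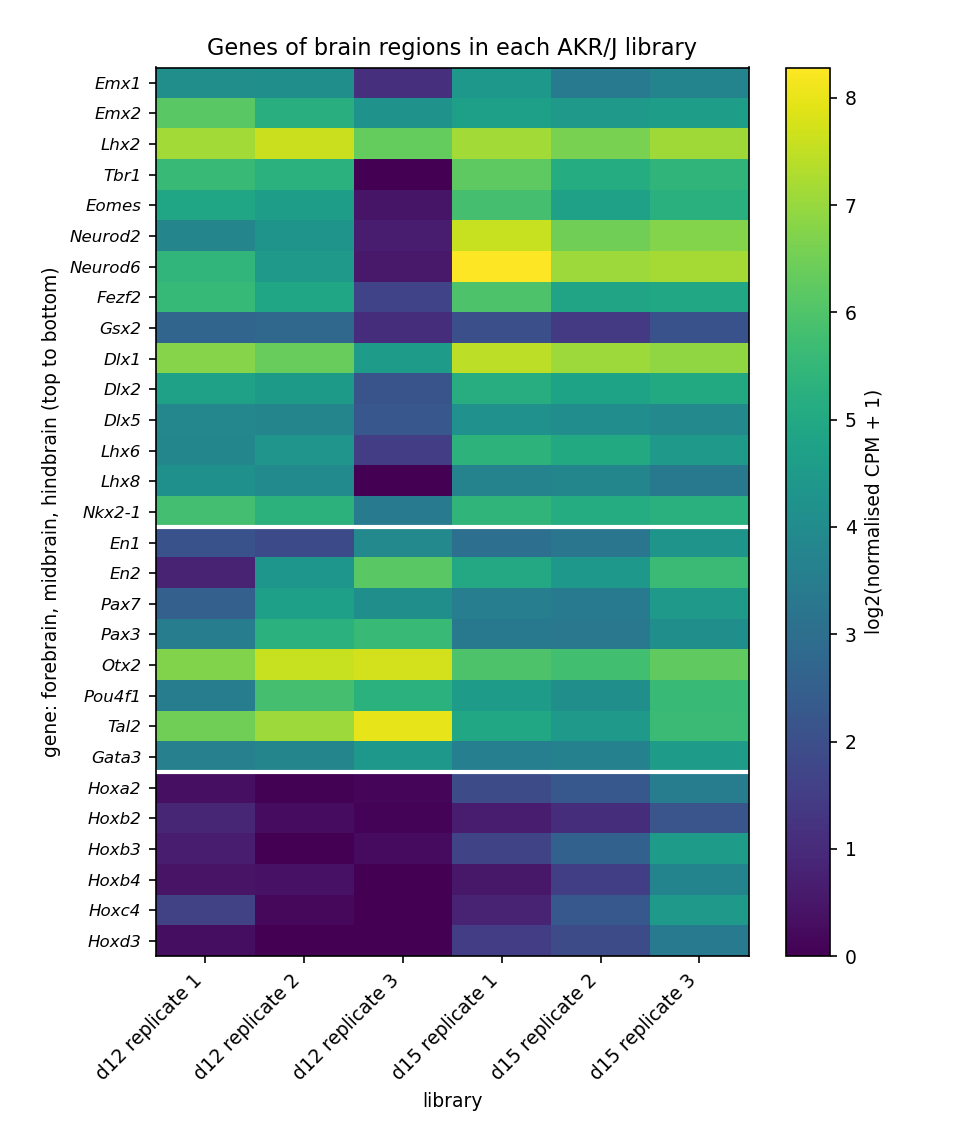
Heat map of the tested genes of the region panel (rows, from forebrain over midbrain to hindbrain) in the 6 AKR/J libraries (columns), coloured by log2(normalised CPM + 1). The panel was chosen after the values were seen. Each forebrain row is darkest in d12 replicate 3, where Tbr1 and Lhx8 had 0 reads, and hindbrain rows are brightest in d15 replicate 3.

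Of 18 genes of cortical projection neurons 8 rose and none fell (median log2 fold change 0.97). Neurod2 (chr11:98216241-98220480), which drives the maturation of cortical excitatory neurons, had 12.5, 18.7 and 0.57 normalised CPM on d12 and 192, 89.6 and 105 on d15 (log2 fold change 3.59, SE 0.89, adjusted p = 0.0187), and was not DE without d12 replicate 1, d15 replicate 1 or d15 replicate 3. Without d12 replicate 3, 10 cortical genes were higher, and without d15 replicate 1, 5 were.

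Of 20 genes of GABAergic neurons 8 rose and none fell (median 0.99), and 10 rose without d12 replicate 3. Gad1 and Gad2, the enzymes that make GABA, rose by 1.16 and 0.97 on the log2 scale, Gad1 from 47.5, 76.2 and 47.1 to 142, 109 and 131 normalised CPM (SE 0.23, adjusted p = 0.00843). Calb2, the calcium-binding protein calretinin, rose by 2.32 (SE 0.31).

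In the striatal and peptide list 9 of 18 rose and 1 fell (median 1.32). Cartpt, a neuropeptide gene, had 29.97, 2.30 and 41.2 normalised CPM on d12 and 1.65, 3.13 and 4.82 on d15 (log2 fold change -2.93, SE 0.88, adjusted p = 0.0381). Its fall rested on d12 replicates 1 and 3, since replicate 2 alone gave a log2 fold change of 0.51 (adjusted p = 0.637), and it was not DE when any library other than d12 replicate 2 was left out. The peptide genes Penk and Tac1, the defining markers of the 2 striatal output pathways fixed in the list, were not DE (log2 fold changes 0.35 and 0.33).

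Neurons of the midbrain and hindbrain gave mixed values. Of 14 genes of dopamine and serotonin neurons 5 rose and 1 fell, and 1 rose when any of the d15 libraries was left out, 2 without d12 replicate 1 and 3, beside 3 falls, without d12 replicate 2. Slc6a3, the dopamine transporter of midbrain neurons, had 0, 0.0622 and 0 normalised CPM on d12 and 1.13, 1.16 and 1.10 on d15 (adjusted p = 0.00423). Th, the rate-limiting enzyme of dopamine synthesis, did not pass the test (log2 fold change -0.03, adjusted p = 0.95), and the serotonin transporter gene Slc6a4 was just past the threshold (1.70, SE 0.55, adjusted p = 0.0499). Of 17 cerebellar and dorsal hindbrain genes 4 rose and 3 fell, beside 14.8% and 14% of all genes. Pax2, a factor of cerebellar interneuron precursors, had 0.193, 0.124 and 1.33 normalised CPM on d12 and 4.88, 6.63 and 21.4 on d15 (log2 fold change 4.39, SE 0.95), and Lmx1a, a factor of the roof plate and rhombic lip, fell by 2.05 (SE 0.37). Without d15 replicate 3 no gene of the cerebellar list was higher and 3 were lower, and without d15 replicate 1, 1 was lower.

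Hox genes of groups 1 to 4, which pattern the hindbrain, were nearly unread on d12. Of 12 listed, 9 passed the filter on low counts and 6 of these were higher, a count that the filter favours, since genes with so few d12 reads pass it through the d15 libraries. Hoxa2 had 0.271, 0.0311 and 0.095 normalised CPM on d12 and 2.74, 3.83 and 10.3 on d15 (log2 fold change 5.40, SE 0.82, adjusted p = 0.00347), and Hoxd3 had 0.232, 0 and 0 on d12 and 1.82, 2.80 and 9.35 on d15. In both genes the d15 values were highest in replicate 3. The 12 Hox genes summed to 5.06, 1.98 and 1.68 RPM on d12 and to 13.5, 33.1 and 126 on d15, and 2 were higher without d15 replicate 3 or without d12 replicate 3 and 3 without d12 replicate 2. Trunk Hox genes of groups 6 to 10, which mark the spinal cord and body, summed to 39.6, 1.38 and 2.24 on d12 and to 0.404, 5.13 and 30.5 on d15, where d12 replicate 1 and d15 replicate 3 stood out. Hoxa10 of this list is also in the decidua list, whose sum was likewise highest in d12 replicate 1. The tissue from which these reads came was not tested. Of 11 genes of cranial motor neurons 5 rose (median 1.89), none was DE without d15 replicate 3, and 3 rose without d15 replicate 1, d15 replicate 2 or d12 replicate 2.

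Glial genes rose in part. Of 18 astrocyte and gliogenesis genes 9 rose and 1 fell (median 1.10), and of 16 oligodendrocyte lineage genes 7 rose (median 1.21). Aldh1l1, a folate enzyme that marks astrocytes, had 1.43, 1.46 and 3.37 normalised CPM on d12 and 10.1, 10.5 and 16.7 on d15 (log2 fold change 2.58, SE 0.42), while Gfap, the filament of mature astrocytes, stayed at 0.095 to 0.696 normalised CPM in all 6 libraries. Fgfr3, a growth factor receptor of progenitors and astrocytes, fell by 0.91 (adjusted p = 0.0419). Olig1 (chr16:91066660-91068821) had 1.28, 0.435 and 0.760 normalised CPM on d12 and 7.97, 7.99 and 8.72 on d15 (log2 fold change 3.32, SE 0.42, adjusted p = 0.00193). The related Olig2, which also marks motor neuron and oligodendrocyte progenitors, had 16.6, 8.61 and 6.27 normalised CPM on d12 and 11.7, 9.60 and 12.8 on d15 (log2 fold change 0.12, adjusted p = 0.834), and its days overlapped. Each library left out in turn gave 8 to 9 rises of astrocyte genes and 4 (without d15 replicate 2) to 8 of oligodendrocyte genes.

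In the choroid plexus, the epithelium that secretes cerebrospinal fluid, 4 of 16 genes rose and 2 fell (median 1.03), beside 14.8% and 14% of all genes. Kcne2 (chr16:92089219-92095027), an auxiliary potassium channel subunit of that epithelium, had 0.309, 0.498 and 0.950 normalised CPM on d12 and 12.3, 7.43 and 12.1 on d15 (log2 fold change 4.19, SE 0.47, adjusted p = 0.00131). Ttr, the thyroid hormone carrier of the choroid plexus and also a product of yolk sac and liver, had 164, 38.4 and 13.4 normalised CPM on d12 and 318, 225 and 317 on d15 (log2 fold change 1.99, adjusted p = 0.0806). Its order among the d12 libraries was that of the yolk sac list, given with that list. Folr1, beside Ttr the other marker fixed for the choroid plexus, had 7.35, 2.71 and 3.61 normalised CPM on d12 and 2.74, 2.19 and 3.12 on d15. It was not DE (log2 fold change -0.76, adjusted p = 0.211). Msx1, a factor of the dorsal midline, fell from 44.6, 36.1 and 38 to 4.91, 9.96 and 8.72 normalised CPM (log2 fold change -2.33, SE 0.28). The gene Tmem72, which was in no list and was looked at after the data were seen, had 0 reads in the d12 libraries and was at least 41.2-fold higher on d15, with 3 reads per library as the most that a count of 0 allows. Of 12 genes of ciliated ependyma 2 rose, near the 14.8% of all genes, Rsph1 (log2 fold change 1.53) and Foxj1 (1.00, adjusted p = 0.0438), and none rose without d15 replicate 3, while 1 rose without d12 replicate 1, d12 replicate 3, d15 replicate 1 or d15 replicate 2. Rises in the choroid plexus list were 2 without d15 replicate 1 or 3, and with library sizes alone 8 genes of that list rose and 1 fell.

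Microglia and macrophage genes included 2 falls among 18, under the 14% of all genes, and no rise (median -0.07, which became 0.35 with library sizes alone). The list gave 5 falls without d12 replicate 2, none without d15 replicate 3 and 1 without d12 replicate 1, d12 replicate 3 or d15 replicate 1. The defining markers Csf1r and C1qa were not DE, with 7.97, 7.15 and 7.56 normalised CPM of Csf1r on d12 and 6.24, 9.24 and 9.64 on d15. Tyrobp, an adaptor protein shared by many myeloid cells, fell from 24.7, 6.19 and 29.0 to 4.33, 4.22 and 3.00 normalised CPM (log2 fold change -2.37, SE 0.52), and the low d12 value was that of replicate 2.

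Of 18 genes of brain endothelium and its barrier 3 rose and 1 fell, near or under the 14.8% and 14% of all genes. Slco1c1, a thyroid hormone transporter of brain capillaries, had 1.55, 1.06 and 2.90 normalised CPM on d12 and 16.3, 13.8 and 14.6 on d15 (log2 fold change 3.03, SE 0.38). The glucose transporter gene Slc2a1, which red cells and progenitors also use, fell by 0.96 (SE 0.24). Of the general endothelial markers, Pecam1 rose by 1.00 (adjusted p = 0.0204) and Cdh5 did not pass the test (-0.14, adjusted p = 0.746). Among pericyte and smooth muscle genes 4 of 13 rose and 2 fell, or 1 fell without d12 replicate 1, d12 replicate 3, d15 replicate 1 or d15 replicate 3. Rgs5, a marker of brain pericytes, had 12.8, 9.17 and 20.4 normalised CPM on d12 and 96.2, 93.4 and 85.4 on d15 (log2 fold change 2.70, SE 0.28, adjusted p = 0.00109), whereas Pdgfrb, a receptor of all pericytes, was not DE (0.24).

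Red blood cell genes fell in nearly all cases. Of 23 tested, 21 fell and none rose (median log2 fold change -4.92), and the list summed to 69364, 36191 and 136712 RPM on d12 and to 2344, 3526 and 3380 on d15. Hbb-bh1 (chr7:103490844-103492371), an embryonic beta-like globin gene, had 7638, 1453 and 10732 normalised CPM on d12 and 3.61, 4.91 and 6.53 on d15 (log2 fold change -10.36, SE 0.95, adjusted p = 0.000883). Hba-x, the embryonic zeta globin gene, had 2128, 1634 and 4996 normalised CPM on d12 and 23.5, 29.4 and 48.8 on d15 (-6.43, SE 0.60). The alpha globin gene Hba-a1, used by embryonic and later red cells, had 3407, 2479 and 8938 normalised CPM on d12 and 386, 583 and 526 on d15 (-3.31, SE 0.54), a smaller fall than those of the embryonic genes. Hbb-bs, an adult beta globin gene, was not DE (-1.64). Hba-a1 and its copy Hba-a2 are nearly identical, so that their reads may have been split between them. Erythroid genes other than globins also fell, among them the transcription factor genes Gata1 (-5.25) and Klf1 (-4.92) and Slc4a1, the anion exchanger of red cells (-5.42). Leaving out each library in turn gave 20 to 22 falls among the 23.

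Platelet and granulocyte genes fell in 6 of the 8 that passed the filter on low counts, of 16 listed, a count that the filter favours for genes with few d15 reads. Among them were Pf4, a chemokine of platelets, at 55.1, 13.7 and 99.9 normalised CPM on d12 and 4.82, 6.68 and 3.75 on d15 (log2 fold change -3.46, SE 0.64), and Ppbp at -4.96 (SE 0.84). The sums of this list, 77.7, 38 and 112 RPM on d12 and 17.5, 21.1 and 16 on d15, had the order of the erythroid list among the d12 libraries. Replicate 3 was the highest and replicate 2 the lowest in both. Without d15 replicate 3, 3 platelet genes fell. How much blood was dissected with each brain and how the blood itself changed over these days cannot be told apart here.

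Genes of the placenta and the uterus were read in the d12 libraries. Genes with few or no reads on d15 passed the filter on low counts through the d12 libraries, so the counts of falls and the medians of the placental, decidual and yolk sac lists are favoured by the filter and are given as a description. Prl8a2 (chr13:27529645-27538199), a prolactin family hormone of the decidua, had 550, 67.9 and 22.3 normalised CPM on d12 and 0 reads on d15, which makes its d12 mean at least 2498-fold higher and its lowest d12 library at least 261-fold higher than 3 reads in a d15 library would be. The granzyme genes Gzmg, Gzmf and Gzmc, proteases of uterine natural killer cells, had 154, 133 and 84.0 normalised CPM in d12 replicate 1, at most 3.95 in the other d12 libraries and 0 reads on d15. By the same bound their d12 means were at least 625-fold, 535-fold and 338-fold higher, and their lowest d12 libraries at least 28.9-fold, 21.8-fold and 12.2-fold higher. Of the decidua and uterine natural killer cell list, 11 of 22 genes passed the filter on low counts and 6 fell, and the list summed to 897, 119 and 42.5 RPM on d12 and to 22.6, 52.8 and 26.2 on d15. In the absence of d15 replicate 3, 1 gene of this list fell, and without d15 replicate 1, 2 did.

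Trophoblast genes, of which 13 of 40 passed the filter on low counts, fell in 11 cases and rose in 1, the endogenous retroviral envelope gene Syna (log2 fold change 2.41). Prl2c5, Prl2a1 and Prl2b1, placental hormones of the prolactin family, had 35.6, 8.47 and 12.8 normalised CPM in d12 replicate 1 and 0 reads on d15, so that their d15 means were at least 157-fold, 47.2-fold and 54.9-fold lower than the d12 means, and at least 15.0-fold, 12.8-fold and 4.37-fold lower than the lowest d12 library. The close copies of this family may share reads. The list summed to 255, 23.4 and 18.2 RPM on d12 and to 6.73, 7.17 and 7.06 on d15. Placed at these limits, genes with 0 reads gave a list median of -6.46 for trophoblast in place of the fitted -8.34, and -5.78 for decidua in place of -10.14. With at least 10 reads required in every library, which removes genes at 0 on d15, the trophoblast median was 0.36.

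Yolk sac endoderm and fetal liver genes passed the filter in 17 of 28 cases, and 10 fell. Afp (chr5:90638584-90656766), alpha-fetoprotein, had 978, 127 and 14.8 normalised CPM on d12 and 0.289, 1.89 and 0.346 on d15 (log2 fold change -8.78, SE 1.68, adjusted p = 0.0075). The apolipoprotein genes Apoa1 and Apob had 148, 23.3 and 4.37 and 252, 19.8 and 1.90 normalised CPM on d12 and at most 0.751 and 0.277 on d15. The list summed to 1617, 298 and 57.4 RPM on d12 and to 39.5, 44.7 and 44.3 on d15. Placental, decidual and yolk sac sums were thus all highest in replicate 1 and lowest in replicate 3 among the d12 libraries, unlike the erythroid sum, and d12 replicate 1 was also the library with Y-linked reads. Without d15 replicate 3, 4 yolk sac genes and 6 trophoblast genes fell, without d12 replicate 3, 17 and 13 did, and without d15 replicate 1, 7 trophoblast genes did.

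Other genes with large falls, S100g, Gzmd, Erv3 and Phlda2, were also highest in replicate 1 and lowest in replicate 3 among the d12 libraries. S100g, a calcium-binding protein of the visceral yolk sac and placenta, had 202, 9.73 and 3.66 normalised CPM on d12 and at most 0.0577 on d15. Gzmd followed the other granzymes with 138, 3.17 and 1.52 normalised CPM on d12. Erv3, an endogenous retrovirus gene, had 141, 34.9 and 11.7 normalised CPM on d12 and at most 0.194 on d15. The pseudogene Cyp4b1-ps2 had 45.4, 9.11 and 80.3 normalised CPM on d12 and at most 0.173 on d15, the order of the erythroid list. Phlda2, an imprinted gene that restrains placental growth, had 14.2, 1.18 and 1.14 normalised CPM on d12 and at most 0.499 on d15 (log2 fold change -4.71, SE 1.37, adjusted p = 0.034).

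**Figure D4:**
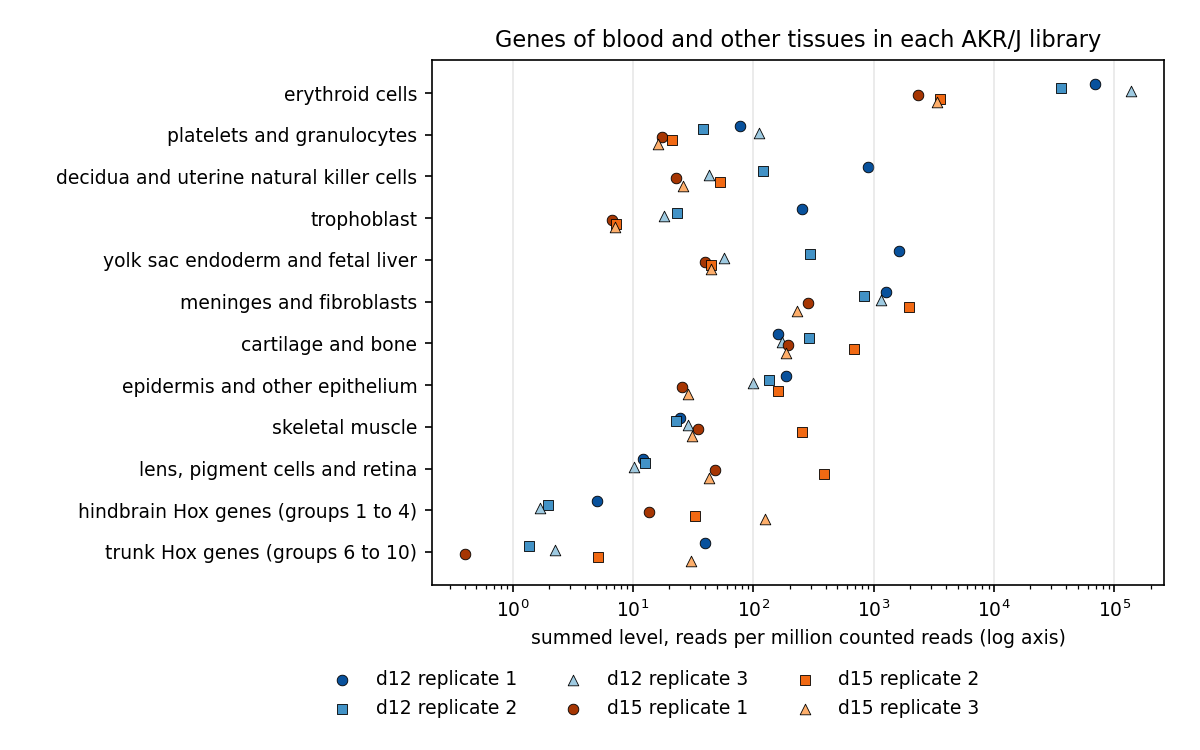
Summed RPM (log axis) of gene lists of other tissues in each of the 6 AKR/J libraries, where each point is a library, blue for d12 and orange for d15. Trophoblast, decidua and yolk sac sums are highest in d12 replicate 1 (255, 897 and 1617), the erythroid sum in d12 replicate 3 (136712), and the muscle and lens sums in d15 replicate 2 (255 and 388).

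Reads of other tissues of the head were highest in 1 d15 library. In d15 replicate 2 the lens, pigment cell and retina list summed to 388 RPM, against 48.2 and 42.5 in d15 replicates 1 and 3 and 10.1 to 12.6 on d12. Crybb1, a lens crystallin, had 0.309, 0 and 0.855 normalised CPM on d12 and 0.866, 37.4 and 1.5 on d15 (log2 fold change 5.18, SE 1.68, adjusted p = 0.0495). Cryba1, another crystallin, had 92.7 normalised CPM in d15 replicate 2 and 0.115 to 2.20 in the other 5 libraries, so that its log2 fold change of 4.08 (adjusted p = 0.151) turned to -3.49 (adjusted p = 0.0119) without that library.

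Skeletal muscle genes summed to 255 RPM in d15 replicate 2 and to 23.0 to 34.8 in the other 5 libraries, and cartilage and bone genes to 688 against 161 to 288. Of 24 muscle and 20 cartilage genes listed, 13 of each list passed the filter on low counts. In each list 3 of these 13 were higher, beside 14.8% of all genes. Among them were Mybpc1 of the muscle list (log2 fold change 1.75, adjusted p = 0.0236) and Col9a3 of the cartilage list (2.16, adjusted p = 0.00699). Both genes had their highest value in d15 replicate 2, and 1 gene of each list was higher without it or without d12 replicate 1. Without d12 replicate 3, 1 cartilage gene was higher, and without d15 replicate 2, 5 cartilage genes were lower. Col2a1, the main collagen of cartilage, was not DE (-0.71).

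The same library had the highest meningeal sum of all 6. The meninges and fibroblast list summed to 1254, 827 and 1143 RPM on d12 and to 283, 1967 and 230 on d15, with Col1a1, a fibrillar collagen, at 119, 109 and 121 normalised CPM on d12 and 6.96, 222 and 10.3 on d15 (log2 fold change -0.54 with all libraries and -3.74 without d15 replicate 2). Of 18 genes of this list 2 fell and 1 rose with all libraries, under the 14% and 14.8% of all genes. Without d15 replicate 2, 11 fell and 1 rose. Crabp2, a retinoic acid binding protein, fell in either case (log2 fold change -2.70, SE 0.35, from 168, 86.7 and 171 to 14.3, 29.95 and 21.4 normalised CPM). In the epidermis and epithelium list, 4 of 18 fell with all libraries, beside 14% of all genes. Falls were 16 without d15 replicate 2, 2 without d12 replicate 3 and none without d12 replicate 1, d15 replicate 1 or d15 replicate 3. The keratin gene Krt5 had 6.46, 9.61 and 6.04 normalised CPM on d12 and 0, 11.8 and 0.0577 on d15. Krt19, a keratin of simple epithelia, fell by 2.94 (SE 0.79, adjusted p = 0.0254). In d15 replicates 1 and 3 the meninges sum was lower than in any d12 library but well above 0, while Krt5 was at or near 0. Of 12 sensory ganglion and Schwann cell genes tested, 1 rose and 1 fell, under the 14.8% and 14% of all genes. The gene that fell was Calca, which encodes the peptide CGRP (log2 fold change -1.94, adjusted p = 0.0324). None of the 12 genes was DE without d12 replicate 3 and 1 was without d12 replicate 1, d15 replicate 1 or d15 replicate 3. Of 7 pituitary genes tested 2 rose and 1 fell, a small list beside the same shares, or 1 rose without d12 replicate 1 or d15 replicate 3. The fall was lost when any library other than d12 replicate 2 was left out, without which 2 fell, and the hormone precursor gene Pomc did not pass the test (-1.69, adjusted p = 0.059).

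Most genes of ribosomes and of mitochondria fell. Of 79 cytosolic ribosomal protein genes 74 fell and none rose (median log2 fold change -2.52), and of 79 nuclear genes of the respiratory chain 54 fell and none rose (median -1.57), or 45 fell and 6 rose with library sizes alone. With d12 replicate 2 alone against d15, 63 ribosomal protein genes fell (median -1.002), 33 respiratory chain genes fell and 3 rose (median -0.42), and 2 mitochondrially encoded genes fell (median -0.61). Rpl39 (chrX:36345092-36349130), a protein of the large subunit, had 2528, 495 and 2677 normalised CPM on d12 and 157, 170 and 143 on d15 (log2 fold change -3.60, SE 0.60, adjusted p = 0.0046). Atp5md, a small subunit of ATP synthase, had 1158, 239 and 1190 normalised CPM on d12 and 92.2, 87.0 and 85.2 on d15 (-3.29, SE 0.55). In both genes d12 replicate 2 lay between the other d12 libraries and d15. All 7 mitochondrially encoded genes tested, of 13 listed, fell (median -1.71), mt-Nd1, a subunit of complex I, from 28533, 6470 and 18673 to 2950, 2852 and 2775 normalised CPM.

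The d12 libraries differed among themselves in these genes. Ribosomal protein genes summed to 177542, 74669 and 149621 RPM on d12 and to 37979, 41070 and 32682 on d15, and mitochondrial genes to 88565, 37593 and 60528 on d12 and to 24585, 24801 and 21550 on d15. Erythroid genes, at 69364, 36191 and 136712 on d12, were also lowest in replicate 2. With 1 library left out, 44 (without d15 replicate 3) to 77 ribosomal genes and 33 (without d15 replicate 3) to 67 respiratory chain genes were lower, while the 7 mitochondrially encoded genes gave no call without d15 replicate 1 or 3, 1 without d15 replicate 2 and 2 without d12 replicate 1 or 3. Ribosomal protein genes have many processed pseudogenes, with which their reads may be shared. Of 42 replication-dependent histone genes 13 fell (median -1.32), with H4c9 at a log2 fold change of -3.07 (SE 0.40), and 5, 6, 7 and 8 fell without d15 replicate 3, d15 replicate 1, d12 replicate 1 and d12 replicate 3. Their mRNAs carry no poly(A) tail, so that libraries selected by poly(A) hold only a small part of them.

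Falls were more frequent among short genes and rises among long genes. Among 1697 genes whose longest transcript is under 1 kb, 1.47% rose and 23.2% fell (median log2 fold change -0.52). For 2505 genes of 1 to 2 kb these shares were 4.43% and 20.2% (median -0.34), and for 6667 genes of 2 to 4 kb 11% and 15.4% (median -0.07). Of 7475 genes of 4 to 8 kb, 21.7% rose and 10.3% fell (median 0.18), and of 1483 genes over 8 kb, 31.4% rose and 6% fell (median 0.36). The median length was 1.95 kb for ribosomal protein genes, 2.52 kb for respiratory chain genes, 6.33 kb for glutamate receptor subunits and 8.41 kb for voltage-gated channels, beside 3.70 kb for all genes tested. The longest annotated transcript of a gene need not be the one expressed. For Atp5md, which fell, it has 7092 bases, and which transcript was read was not examined. When the trends of each library with length and GC content were removed, an alternative added after the data were seen, 5461 genes were DE, of which 4654 were among the 5758, and 74 ribosomal protein genes, 52 respiratory chain genes and 1 of the 7 mitochondrially encoded genes were lower, while 34 synapse genes, 28 channels and 16 glutamate receptor subunits were higher. What underlies this trend was not tested.

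**Figure D5:**
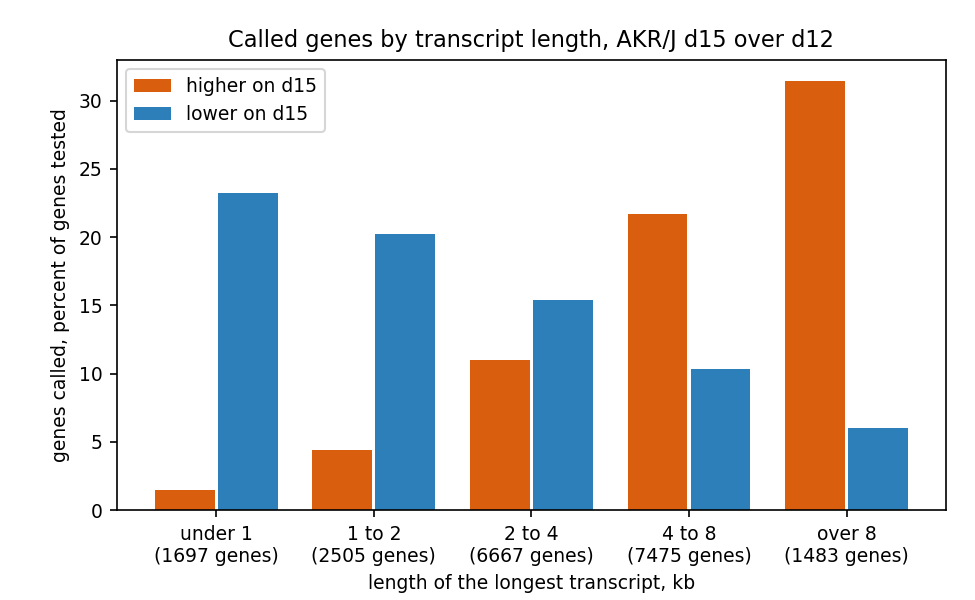
Share of tested genes called higher or lower on d15, in percent, by the length of the longest annotated transcript in kb, with the number of genes of each class under it. The share of rises goes from 1.47% under 1 kb to 31.4% over 8 kb, and that of falls from 23.2% to 6%.

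Lists of metabolic, stress and imprinted genes had shares of DE genes near or under the 28.9% of all genes. Of 27 genes of glycolysis and hypoxia 6 rose and 3 fell (median 0.08), while 7 fell without d12 replicate 2, 1 without d15 replicate 2 and none without d12 replicate 1, d15 replicate 1 or d15 replicate 3, nor with library sizes alone, where 8 rose. Aldoc (chr11:78213619-78218889), the aldolase of astrocytes and some neurons, had 4.41, 3.76 and 2.14 normalised CPM on d12 and 41.0, 30.2 and 55.9 on d15 (log2 fold change 3.61, SE 0.34, adjusted p = 0.000922), while Bnip3, a hypoxia target, fell by 0.90 (SE 0.22). Cholesterol synthesis genes fell in 3 of 23 cases and rose in 1, with a median of -0.13 that became 0.32 with library sizes alone, and 5 fell without d12 replicate 2 and 1 without d15 replicate 1. Idi1 fell from 100, 56.3 and 92.9 to 28.7, 28.9 and 29.1 normalised CPM, and Fdft1 rose by 0.55 (adjusted p = 0.0401).

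Of 20 genes of chaperones and the stress response 4 fell and 2 rose, and Trib3, induced by the unfolded protein response and by lack of amino acids, fell from 3.63, 5.66 and 9.98 to 0.289, 0.804 and 0.577 normalised CPM (log2 fold change -3.51, SE 0.54). Interferon response and MHC genes fell in 2 of 21 cases, among them B2m, the light chain of MHC class I, with 119, 29.7 and 83.9 normalised CPM on d12 and 16.8, 30.1 and 15.8 on d15 (log2 fold change -1.89, adjusted p = 0.0205). Immediate early genes had 2 rises and 1 fall among 13, with Npas4, a factor induced by neuronal activity, at a log2 fold change of 1.80 (SE 0.35). The fall was lost without d12 replicate 1, d12 replicate 3, d15 replicate 1 or d15 replicate 3, and 1 gene of that list rose without the last of these. Without d12 replicate 2 the falls were 9 in the stress list and 7 in the interferon list. Without d12 replicate 3 or any 1 of the d15 libraries 2 stress genes fell, none rose without d12 replicate 1, d15 replicate 1 or d15 replicate 3 and 1 rose without d12 replicate 3 or d15 replicate 2, and without d12 replicate 1 or 3 or d15 replicate 1 or 3 no interferon gene did. Of 22 imprinted genes 3 rose and 1 fell, or 4 fell without d15 replicate 2, and Meg3, a maternally expressed long noncoding RNA, rose from 870, 1168 and 800 to 3260, 3309 and 3085 normalised CPM (log2 fold change 1.77, SE 0.29).

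Whether the change from d12 to d15 differed from that of another strain was tested by the interaction of strain and day over 12 libraries, and both tests share the 6 AKR/J libraries. Against C57BL/6J, 15 of 21090 genes (0.0711%) passed an adjusted p under 0.05, while 3432 had an unadjusted p under 0.05. Of all genes 1 (0.00474%) changed more upwards and 14 (0.0664%) more downwards in AKR/J, but 89 and 18 did with library sizes alone. With TMM, the gene that changed more upwards was Lrrc49. It rose by 1.03 in AKR/J and had a log2 fold change of -0.08 in C57BL/6J (difference 1.06, adjusted p = 0.0428). Slc7a11, the cystine importer, rose less in AKR/J (0.76 against 3.22). The heat shock gene Hspa1a, with group means of only 0.329 to 1.85 normalised CPM, also changed more downwards (-1.44 against 1.87). Slc7a11 and Hspa1a were the 2 members of the stress list that passed, and no member of any other list did. Outside the lists, Sptb and Fech, which encode a spectrin and the last enzyme of heme synthesis and are both used by red cells, had log2 fold changes of -1.32 against 1.87 and -2.35 against -0.13. The ribosomal protein pseudogene Rpl34-ps1 had -3.28 against 4.12. Its means in C57BL/6J were only 0.210 normalised CPM on d12 and 3.86 on d15, beside 177 and 18.2 in AKR/J. The list medians, whose difference was not tested, were -2.52 in AKR/J against -0.77 in C57BL/6J for ribosomal proteins, -4.92 against -1.73 for erythroid genes, 1.45 against 0.93 for synapse genes and -1.03 against -1.15 for mitosis genes. The count of 15 was 3251 without AKR/J d12 replicate 2 and 388 without C57BL/6J d12 replicate 3, and 3 without any 1 of the d15 libraries of AKR/J.

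Against Cav1-null mice, 3191 of 21774 genes (14.7%) passed the test, with 1712 changing more upwards and 1479 more downwards in AKR/J, or 2882 and 852 with library sizes alone. Ribosomal protein genes had the largest share, with 73 of 79 changing more downwards in AKR/J, against 6.79% of all genes (median log2 fold change -2.52 against -0.02), followed among large lists by 51 of 79 respiratory chain genes, where 1 changed more upwards (-1.57 against 0.04). Of 23 erythroid genes 17 changed more downwards (-4.92 against -1.13). On d12 the erythroid list summed to 36191 to 136712 RPM in AKR/J, 4796 to 5768 in Cav1-null mice and 1990 to 5245 in C57BL/6J, and on d15 to 2344 to 3526, 3305 to 4051 and 872 to 1137. Yolk sac genes summed to 32.0 to 49.1 RPM in the d12 libraries of Cav1-null mice and to 36.8 to 44.4 in those of C57BL/6J, about the level of AKR/J on d15. Trophoblast genes summed to 6.57 to 9.97 RPM in the d12 libraries of Cav1-null mice, and to 6.93, 11.1 and 154 in those of C57BL/6J, of which 1 thus lay between the highest and the other d12 libraries of AKR/J.

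In several lists of neuronal genes, more members than the 7.86% of all genes changed more upwards in AKR/J than in Cav1-null mice. The counts were 21 of 43 synapse genes (median 1.45 against 0.51), 13 of 24 cytoskeletal genes (1.34 against 0.14), 15 of 70 axon guidance genes, 11 of 39 channels, 9 of 25 glutamate receptor subunits and 6 of 20 genes of GABAergic neurons (0.99 against -0.14). Other neuronal lists were near the share of all genes, with 1 of 18 genes of cortical projection neurons, 2 of 18 striatal and peptide genes, 1 of 14 genes of dopamine and serotonin neurons and 4 of 55 protocadherins. Genes of proliferation differed in few cases, with 3 of 35 mitosis genes changing more upwards and 2 more downwards (-1.03 against -1.30), and 3 and 3 of 40 replication genes (-0.87 against -1.08). On d12 the synapse genes summed to 1101, 2254 and 1173 RPM in AKR/J replicates 1, 2 and 3, to 3539 to 3648 in Cav1-null mice and to 2878 to 5227 in C57BL/6J, and on d15 to 4054 to 4868, 4879 to 5243 and 6775 to 7703. Both days of AKR/J thus had the lowest sums of the 3 strains. With 1 library left out, 1581 to 7275 genes passed this test, the most without AKR/J d12 replicate 2.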

How the data were processed

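Fetal brain RNA of AKR/J mice was compared between d12 and d15, with 3 libraries for each day, grouped by their labels. The deposited values are raw read counts per Ensembl gene, which the authors made from reads mapped to GRCm39. The submitters' processing notes name FastQC, cutadapt, fastp, STAR, bedtools and edgeR. The counting tool and its handling of strand are not given in the sources used here. All columns matched a sample. The splice junction table was not used here.

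Genes were kept by filterByExpr (minimum count 10), scaled by TMM and tested with edgeR 4.0.16 (quasi-likelihood, R 4.3.3), with Benjamini-Hochberg adjustment and a threshold of 0.05. Standard errors (SE) were taken as the size of the log2 fold change divided by the root of F. Strain by day interactions were fitted over 12 libraries. The script was tested on simulated data. Counts of 0 were bounded with 3 reads per library. Coordinates are from GENCODE vM39. Plots were drawn with matplotlib 3.10.9.

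The members and the 54 gene lists were chosen with earlier results of these data known. Named genes are the 10 largest rises and falls without overlap (average log2 CPM of at least 3), in each list the DE members with the largest rise and fall (at least 1), the first 2 genes of each marker list, and the extreme DE gene of each interaction test. Others were chosen after their values were seen. A few named genes are not reported here. Alternatives were DESeq2 1.42.0, the likelihood ratio test, other scalings, filters, models, thresholds, replicate number as a block, and omission of each library. Removing length and GC trends and using d12 replicate 2 alone were added after seeing the data. Depth was 28340089 to 35743241 reads. Intervals from counts cover counting error only.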

Additional observations from a re-analysis of the deposited data

Results flagged for a closer look

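The results in this section are named genes whose change from d12 to d15 differed between strains in edgeR's interaction test, with Benjamini-Hochberg adjustment over all genes. Each value is the difference of the log2 fold changes, AKR/J minus the other strain, and the 6 AKR/J libraries enter both tests. Of the 127 named genes reported, 3 differed from C57BL/6J (adjusted p from 0.000138 to 0.0428) and 58 from Cav1-null mice (adjusted p from 4.58e-05 to 0.0491), beside 0.0711% and 14.7% of all genes. Most of them were named for a large change in the same AKR/J libraries, and some for their interaction, which favours a difference, so these counts are a description. Fitted differences that involve a group at or near 0 reads depend on the prior count and are no measure of size.

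Against C57BL/6J the difference was 1.06 for Lrrc49, -2.51 for Slc7a11 and -9.28 for Gm4815, a gene model that was not DE in AKR/J (log2 fold change 0.21) and rose in C57BL/6J (9.49).

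Against Cav1-null mice 32 genes changed more upwards in AKR/J. Among receptors, channels and synaptic genes, the difference was 3.18 for Grm5, 4.26 for Slc6a3, 3.44 for Kcnk9, 2.81 for Glra2, 2.77 for Dpp10, 2.41 for Plppr4, 2.23 for Camk2b and 1.72 for Sstr2. For neuronal structure and identity it was 2.95 for Ablim3, 2.75 for Ppp2r2c, 2.66 for Hs3st4, 2.53 for Hpcal4, 2.44 for Ntng1, 2.28 for Mapt, 1.54 for Rbfox1, 1.34 for Actl6b, 1.31 for Calb2, 1.12 for Gad2, 1.61 for Isl1 and 6.15 for Hoxa2. Glial, epithelial and vascular genes gave 3.23 for Aldoc, 2.5 for Bcan, 1.72 for Aldh1l1, 4.12 for Kcne2, 2.02 for both Foxj1 and Rsph1, 1.98 for Rgs5, 1.97 for Slco1c1 and 1.73 for Pecam1. The remaining values were 2.33 for Col9a3, 2.1 for Dkk3 and 1.1 for Lrrc49.

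The other 26 genes changed more downwards in AKR/J. Progenitor and proliferation genes gave -1.02 for Birc5, -1.09 for Gins2, -1.38 for Neurod4, -1.97 for Lin28a and -1.7 for H4c9. The median difference was 0.23 in both the mitosis list of Birc5 and the replication list of Gins2, with 3 genes of each changing more upwards. Metabolic, ribosomal and stress genes gave -1.04 for Bnip3, -1.57 for Idi1, -2.8 for Trib3, -2.76 for mt-Nd1, -3.67 for Atp5md and -3.8 for Rpl39. Genes of blood and myeloid cells gave -1.93 for Hba-x, -3.36 for Hba-a1, -4.65 for Hbb-bh1, -3.06 for Pf4 and -2.7 for Tyrobp. Genes of yolk sac, placenta, decidua and epithelium gave -11 for Afp, -9.92 for Apoa1, -10.4 for Apob, -10.1 for Gzmd, -12.7 for Prl2a1, -13.3 for Prl2c5, -16.9 for Prl8a2 and -5.27 for Krt19. Cyp4b1-ps2 (-7.02) and Erv3 (-9.9) were in no list, and the tissue from which their reads came was not tested.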

How the results depend on the processing

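The 5758 DE genes became 9568 with all 27 libraries in 1 model and 3189 with d12 replicate 2 alone against d15 (2695 of them among the 5758), where the lone d12 library is assumed to vary like the d15 libraries, and lay between 2619 and 9052 when each library was left out. In every other setting the count was between 4036 (absolute log2 fold change of at least 1) and 7810 (9 AKR/J libraries), and no gene called in both fits had the opposite sign. The split of rises was 51.37% with TMM and 74.72% with library sizes alone, and the median of all genes 0.02 and 0.46.

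Replicate numbers did not pair the samples: deviations of d12 and d15 libraries with the same number correlated at -0.07, -0.19 and 0.04. With the replicate block, 4241 genes were DE, 15 named genes lost their call, and the interaction counts were 6 and 2211.

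The interaction with C57BL/6J (15 genes) gave 6 with the replicate block, 107 with library sizes alone, 544 without a filter, 1018 with DESeq2 and 1660 with 1 model of all 27 libraries, and 3 to 3251 with 1 library left out. That with Cav1-null mice (3191 genes) gave 1581 to 7275 with 1 library left out.

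The medians of 18 of the 54 lists changed sign in at least 1 setting. With library sizes alone 6 did, Notch (0.10) and Wnt (0.07) among them, where the median of all genes moved as well. Without d15 replicate 2 the muscle, cartilage and lens medians were -0.60, -1.16 and -0.20 in place of 1.70, 0.37 and 3.03, without d15 replicate 3 the cerebellar median was -0.17 in place of 0.29, and with at least 10 reads in every library the trophoblast median was 0.36. Of single genes, Cartpt had a log2 fold change of 0.51 (adjusted p = 0.637) with d12 replicate 2 alone, and Cryba1 one of -3.49 (adjusted p = 0.0119) without d15 replicate 2, at the low end of its leave-one-out range of -3.49 to 4.67. Of 2575 values in 20 settings for the 131 genes chosen by the rule, those not reported here included, 2337 kept their direction and side of the threshold, 201 lost and 35 gained a call. Leaving out d15 replicate 3 removed the call of 34 named genes, among them Apob, Pax2, Gas1, Ephb4, Tyrobp, Rsph1, mt-Nd1 and the 4 granzyme genes, and leaving out d15 replicate 1 that of 25, among them Slc2a1, Slc6a13, Prl2b1 and Krt19. Without d12 replicates 1, 2 and 3 the number was 21, 8 and 12. Calls of Slc6a4, Foxj1, Calca, Crybb1, Gchfr, Dkk3, Dner, Myc, Mybpc1, Fgfr3, Bnip3, Fdft1, Slc7a11, Phlda2 and B2m were each lost without at least 3 of the 6 libraries taken in turn. The cause was not tested.

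Depth limits what a count of 0 can show: 3 reads per library stand for 0.0855 normalised CPM on d15 and 0.117 on d12.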
